A study of Homo sapiens with 12 samples.

Results

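Pseudouridine synthases that work without a guide RNA were followed in RNA-Seq libraries of HPB-ALL and KOPTK1, 2 established human lines of T-cell acute lymphoblastic leukaemia (T-ALL). The members were the 10 genes PUS1, PUS3, PUS7, PUS7L, PUS10, PUSL1, TRUB1, TRUB2, RPUSD1 and RPUSD2, found by their Ensembl identifiers among the 58288 genes that each table lists. All 10 were matched. By the labels, each line gave 3 libraries from cells infected with pLKO.1 lentivirus carrying shRNA against GFP (shGFP, the control) and 3 from cells with shRNA against SHQ1 (shSHQ1), an assembly factor of H/ACA ribonucleoproteins, all with puromycin at 2 μg/mL. Each table holds the 6 libraries of 1 line under headings that are only numbers, from 7 to 12 for HPB-ALL and from 1 to 6 for KOPTK1, and no number shows which shRNA a library carries. Libraries were therefore described by their number and compared between the lines, and shSHQ1 was not compared with shGFP. With all 12 libraries, each difference between the lines, its SE and its p-value pool 3 shGFP and 3 shSHQ1 libraries per line. Each line is a single established culture, and the labels do not say whether its libraries came from separate infections, so p-values measure the spread between these libraries, not between T-ALL lines.

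Pseudouridine, the C-glycoside isomer of uridine, is made in RNA by enzymes of 2 kinds. The H/ACA ribonucleoproteins, whose catalytic subunit is dyskerin (DKC1), are directed to a uridine by the base pairing of a guide RNA, whereas stand-alone synthases recognise the sequence and fold of the RNA itself. Most stand-alone synthases are best known for tRNA, where pseudouridine stabilises the fold and the anticodon arm, and several also act on mRNA or on mitochondrial RNA. They fall into families named after bacterial enzymes: PUS1, PUS3 and PUSL1 resemble TruA, TRUB1 and TRUB2 resemble TruB (as does dyskerin), PUS7 and PUS7L resemble TruD, and RPUSD1 and RPUSD2 resemble RluA. PUS10 forms a family of its own, shared with archaea.

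The synthase genes lie apart from each other in the genome, in the GRCh38 coordinates of the tables. PUS1 is on the plus strand of chromosome 12 (131929200 to 131945896), PUS3 on the minus strand of chromosome 11 (125893485 to 125903221) and PUSL1 on the plus strand of chromosome 1 (1308567 to 1311677). TRUB1 is on the plus strand of chromosome 10 (114938193 to 114977676) and TRUB2 on the minus strand of chromosome 9 (128305161 to 128322742). PUS7 is on the minus strand of chromosome 7 (105456511 to 105522258), PUS7L on the minus strand of chromosome 12 (43718993 to 43758817) and PUS10 on the minus strand of chromosome 2 (60941969 to 61018254). RPUSD1 is on the minus strand of chromosome 16 (784974 to 788397) and RPUSD2 on the plus strand of chromosome 15 (40569300 to 40574943). The summed exon length over which reads were counted ran from 1287 bp for PUSL1 to 14037 bp for PUS7L.

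Counts per library totalled 36.8 M to 42.8 M in HPB-ALL and 22.9 M to 36.1 M in KOPTK1 (M, mega), and the synthase genes had between 407 and 7549.5 counts in a library. All 10 T cell markers examined, CD3D, CD3E and LCK among them, were above 1 TPM (a transcript level scaled by exon length and by library total) in both lines. In bulk RNA such as this, fewer cells with a transcript and less of it per cell cannot be told apart. LMO2, chosen as a marker of KOPTK1, was at 2.61 to 6.45 TPM there and at 0.215 to 0.717 TPM in HPB-ALL. TLX3, chosen as a marker of HPB-ALL, was at or near 0 in every library, with a highest level of 0.0995 TPM in HPB-ALL and of 0.796 TPM in KOPTK1, so this marker goes against the label of HPB-ALL. The identity of the lines and whether each library holds RNA of a single line were not tested, and HPB-ALL and KOPTK1 name here the libraries labelled so. The B cell list was led by CD79A, and its summed level over 5 genes ran from 113 to 129 TPM in HPB-ALL and from 19.2 to 70.0 TPM in KOPTK1, with PAX5 at or near 0. The myeloid list summed to between 2.68 and 5.47 TPM in all libraries and the erythroid list to between 0.676 and 2.30 TPM. SHQ1, the target of the knockdown, was at 194, 196, 195, 129.999, 126 and 134 TPM in HPB-ALL libraries 7 to 12 and at 122, 119, 125, 109, 109 and 101 TPM in KOPTK1 libraries 1 to 6.

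The KOPTK1 libraries headed 1, 2 and 3 stood apart from the other KOPTK1 libraries over the whole transcriptome. Pearson's r of log2 CPM (counts scaled to the library total) with the HPB-ALL libraries was 0.977 to 0.982 for these 3 libraries and 0.950 to 0.955 for libraries 4, 5 and 6. Sets of 200 genes most above the other line were taken from these same libraries without the synthase genes. They were drawn from genes with an adjusted p under 0.05 by edgeR and an average log2 CPM of at least 4. Over the 200 genes most above KOPTK1 in HPB-ALL, the median level was 56.5% to 57.5% of that in HPB-ALL in libraries 1, 2 and 3. In libraries 4, 5 and 6 it was 19.6% to 20.4%. Over the 200 genes most above HPB-ALL in KOPTK1, the HPB-ALL libraries were at 22.8% to 26.8% of the KOPTK1 median. Libraries 1, 2 and 3 were at 78.8% to 80.3% of it, and libraries 4, 5 and 6 at 120.5% to 121.6%. The comparison between the lines is therefore given with all 12 libraries and without libraries 1, 2 and 3. The part of this library difference in the level of each synthase gene was not tested. Libraries 1, 2 and 3 were set aside after the data were seen, and they lie nearer to HPB-ALL than the other KOPTK1 libraries. Leaving them out therefore widens differences between the lines in general. Genes with a difference of at least 2-fold went from 4239 of 27840 tested to 7189 of 29518. The fit without these libraries is thus no independent support for a difference. It keeps only KOPTK1 libraries 4, 5 and 6, and the labels do not show which shRNA these carry. Their mix of shGFP and shSHQ1 may differ from that of the HPB-ALL libraries, so line and shRNA cannot be told apart in that fit.

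**Figure D1:**
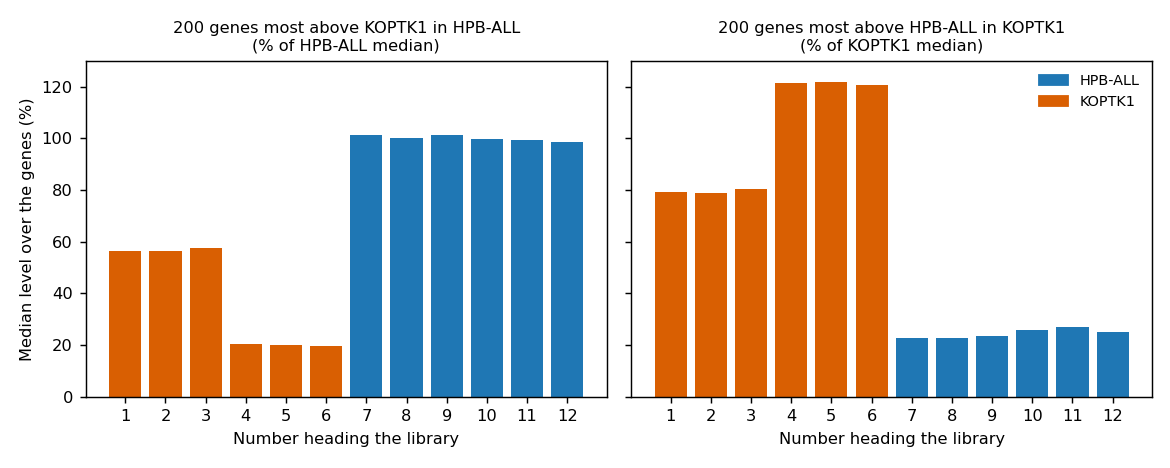
Median level, in percent, over 200 genes most above KOPTK1 in HPB-ALL (left) and 200 genes most above HPB-ALL in KOPTK1 (right), for each library by the number that heads it. Bars are coloured by line, and libraries 1, 2 and 3 of KOPTK1 sit between the other KOPTK1 libraries and HPB-ALL in both panels.

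The synthase genes were expressed in every library of both lines, and their median levels stayed between 12.03 and 51.9 TPM. In HPB-ALL the order from the highest median was PUSL1 (51.9 TPM), PUS7 (42.9), TRUB1 (40.1), RPUSD1 (38.8), PUS7L (33.5), PUS3 (32.7), TRUB2 (28.4), PUS1 (24.1), RPUSD2 (24.1) and PUS10 (12.03 TPM). In that order PUSL1 was above PUS7 in all libraries, RPUSD1 above PUS7L, PUS3 above TRUB2, and RPUSD2 above PUS10. The other neighbours had overlapping ranges. In KOPTK1 the order was PUS7 (45.4 TPM), PUSL1 (41.5), RPUSD1 (36.8), TRUB1 (32.1), PUS3 (30.8), PUS7L (28.3), TRUB2 (22.6), RPUSD2 (19.7), PUS1 (18.1) and PUS10 (13.7 TPM). There, RPUSD1 was above TRUB1 and PUS7L above TRUB2 in all libraries, and the other neighbours overlapped. PUS10 thus had the lowest median in both lines, and PUSL1 and PUS7 the highest.

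Between the lines, 6 of the 10 synthase genes were higher in HPB-ALL, 1 was higher in KOPTK1 and 3 did not pass the test. All differences were small. The largest was that of PUS1, 1.33-fold higher in HPB-ALL, and none reached 2-fold. The test was edgeR's quasi-likelihood test over 27840 genes, with a call at an adjusted p under 0.05 (Benjamini-Hochberg). It called 63.8% of all genes, 30.7% of them higher in HPB-ALL and 33.2% higher in KOPTK1, as shares of the genes tested, so a call for 7 of 10 synthase genes was near the share for all genes. The median difference (HPB-ALL minus KOPTK1, log2) was 0.19 over the synthase genes and -0.03 over all genes tested. The TPM ranges of the lines did not overlap for 6 of the 10 genes, against 44% of all genes tested. These were 5 synthase genes higher in HPB-ALL (23.4% of all genes) and 1 higher in KOPTK1 (20.6% of all genes). Without libraries 1, 2 and 3, the same 7 genes passed in the same directions, with 68.1% of all genes called (33.8% higher in HPB-ALL and 34.2% higher in KOPTK1), and the median difference was 0.29 over the synthase genes and -0.02 over all genes.

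Among the TruA relatives, PUS1 is the enzyme of nuclear and mitochondrial tRNA whose loss causes an inherited myopathy with sideroblastic anaemia. Its level was 24.2, 27.0, 24.0, 24.1, 25.4 and 23.6 TPM in HPB-ALL libraries 7 to 12, and 21.3, 19.0, 13.8, 17.96, 17.6 and 18.2 TPM in KOPTK1 libraries 1 to 6. Every HPB-ALL library was above every KOPTK1 library, and library 3 was the lowest of all. The fitted difference was 0.41 ± 0.08 (log2, SE, n = 6 and 6; adjusted p = 6.2e-04 by edgeR). It was 0.41 ± 0.05 without libraries 1, 2 and 3, and stayed between 0.34 and 0.46 when any single library was left out. PUS1 shares 3.11% of its exon bases (152 bp) with PUS1-AS1, an antisense gene that was higher in HPB-ALL (0.91 on the log2 scale, adjusted p = 0.0012 by edgeR). The library kit named in the methods does not mark strand, so reads of such shared bases cannot be told apart.

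PUSL1, a less studied relative of PUS1, ran from 49.2 to 53.7 TPM in HPB-ALL (median 51.9) and from 39.9 to 49.0 TPM in KOPTK1 (median 41.5). The ranges missed each other narrowly: KOPTK1 library 1 (49.0 TPM) lay just under the lowest HPB-ALL library, and libraries 4, 5 and 6 were the lowest, at 39.9, 40.0 and 40.8 TPM. The difference was 0.22 ± 0.05 (log2, SE; adjusted p = 0.0021 by edgeR), and 0.31 ± 0.05 without libraries 1, 2 and 3. Of the exon bases of PUSL1, 7.23% (93 bp) are shared with INTS11, an Integrator subunit on the opposite strand. INTS11 did not pass the test between the lines (-0.05 on the log2 scale, adjusted p = 0.28 by edgeR).

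PUS3, which modifies the anticodon arm of tRNA, did not pass the test. It ran from 30.7 to 34.2 TPM in HPB-ALL and from 27.9 to 32.8 TPM in KOPTK1, with overlapping ranges. The difference was 0.03 (log2), with a 95% confidence interval from -0.08 to 0.14 (adjusted p = 0.59 by edgeR). A difference above 1.10-fold in favour of HPB-ALL lay outside that interval.

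The TruB relatives were both higher in HPB-ALL. TRUB1, the main synthase of the T arm of cytoplasmic tRNA, was at 38.1 to 40.6 TPM in HPB-ALL (median 40.1) and at 29.0 to 35.3 TPM in KOPTK1 (median 32.1). Libraries 1, 2 and 3, at 32.9, 34.9 and 35.3 TPM, were the highest of KOPTK1 and still below every HPB-ALL library. The difference was 0.24 ± 0.04 (log2, SE; adjusted p = 2.0e-04 by edgeR), and 0.33 ± 0.04 without libraries 1, 2 and 3.

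TRUB2 is a mitochondrial synthase. Its level was 28.6, 27.5, 28.9, 28.2, 28.7 and 26.8 TPM in HPB-ALL libraries 7 to 12, and 24.6, 24.4, 25.04, 20.7, 19.2 and 20.1 TPM in KOPTK1 libraries 1 to 6. Libraries 1, 2 and 3 lay between the other KOPTK1 libraries and HPB-ALL, as they did over the whole transcriptome. The difference was 0.28 ± 0.06 (log2, SE; adjusted p = 5.9e-04 by edgeR). Without libraries 1, 2 and 3, a fit that widens differences in general, it was 0.43 ± 0.04, the largest of the 10 genes. TRUB2 shares 3.62% of its exon bases (207 bp) with COQ4, a coenzyme Q synthesis gene on the opposite strand, which was also higher in HPB-ALL (0.36 on the log2 scale, adjusted p = 1.7e-04 by edgeR).

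Of the TruD relatives, PUS7L was higher in HPB-ALL and PUS7 did not pass. PUS7 recognises a short sequence motif in tRNA, mRNA and small RNAs. It was at 45.9, 43.4, 45.6, 39.1, 38.8 and 42.4 TPM in HPB-ALL libraries 7 to 12, and at 45.2, 46.7, 45.5, 46.2, 42.0 and 40.3 TPM in KOPTK1 libraries 1 to 6. The ranges overlapped, with libraries 10 and 11 the lowest of all. The difference was -0.11 (log2), with a 95% confidence interval from -0.22 to -0.0010 (adjusted p = 0.072 by edgeR; unadjusted 0.048). Leaving out HPB-ALL library 7 brought it past the threshold (-0.13, adjusted p = 0.046 by edgeR), and without libraries 1, 2 and 3 it was -0.06 (adjusted p = 0.33).

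PUS7L, its less studied paralog, ran from 31.5 to 35.7 TPM in HPB-ALL (median 33.5) and from 25.3 to 31.1 TPM in KOPTK1 (median 28.3). All HPB-ALL libraries were above all KOPTK1 libraries, and libraries 4, 5 and 6 were the lowest. The difference was 0.20 ± 0.04 (log2, SE; adjusted p = 0.0015 by edgeR), and 0.29 ± 0.04 without libraries 1, 2 and 3. The TPM of PUS7L rests on a summed exon length of 14037 bp, the longest of the 10 genes, so its place in the order of levels depends on how much of that length its transcripts use.

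PUS10 was the only synthase gene of the 10 that was higher in KOPTK1. It acts on the T arm of tRNA and has been linked to microRNA maturation. Its level was 12.2, 11.3, 11.95, 12.7, 11.6 and 12.1 TPM in HPB-ALL libraries 7 to 12, and 12.96, 13.1, 14.03, 14.1, 13.4 and 14.1 TPM in KOPTK1 libraries 1 to 6. Every KOPTK1 library was above every HPB-ALL library, though library 10 (12.7 TPM) and library 1 (12.96 TPM) nearly met. The difference was -0.23 ± 0.05 (log2, SE; adjusted p = 0.0011 by edgeR), which corresponds to a 1.18-fold higher level in KOPTK1, and -0.26 ± 0.06 without libraries 1, 2 and 3. PEX13, which shares 93 bp with PUS10 from the opposite strand, went the other way (0.18 on the log2 scale, adjusted p = 0.0043 by edgeR).

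Of the RluA relatives, RPUSD2 was higher in HPB-ALL, with ranges that overlapped: 22.6 to 24.5 TPM in HPB-ALL (median 24.1) and 17.7 to 23.0 TPM in KOPTK1 (median 19.7). Libraries 2 and 3, at 22.3 and 23.0 TPM, were the highest of KOPTK1, and library 3 alone exceeded the lowest HPB-ALL libraries. The difference was 0.18 ± 0.06 (log2, SE; adjusted p = 0.016 by edgeR), and 0.29 ± 0.06 without libraries 1, 2 and 3.

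RPUSD1 did not pass the test, with 37.4 to 44.1 TPM in HPB-ALL and 35.5 to 40.5 TPM in KOPTK1. The ranges overlapped, and libraries 8 and 9 (43.7 and 44.1 TPM) were above all others. The difference was 0.05 (log2), with a 95% confidence interval from -0.07 to 0.16 (adjusted p = 0.44 by edgeR), and 0.08 without libraries 1, 2 and 3 (adjusted p = 0.24). RPUSD1 shares 6.17% of its exon bases (142 bp) with CHTF18, a replication clamp loader gene on the opposite strand that was higher in HPB-ALL (0.18 on the log2 scale, adjusted p = 0.028 by edgeR).

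Within a line, the spread of the synthase genes over libraries was read beside that of other genes. The highest library over the lowest was 1.07-fold (TRUB1) to 1.18-fold (PUS7) in HPB-ALL, with a median of 1.12 over the 10 genes and of 1.14 over the 15059 tested genes with a mean of at least 10 TPM. In KOPTK1 it was 1.09-fold (PUS10) to 1.54-fold (PUS1), with a median of 1.22 over the 10 genes and of 1.27 over the same 15059 genes. The wide range of PUS1 in KOPTK1 rests on library 3 (13.8 TPM) and library 1 (21.3 TPM). Library 3 also had the most genes with at least 1 count, 41131, where the other KOPTK1 libraries had 36506 to 38467.

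The genes whose levels over the 12 libraries were most like those of PUS1, by Pearson's r of log2 TPM among 27839 other genes, were GOLGA3 (r = 0.980), DHX38 (r = 0.972) and PCNT (r = 0.966). For PUS10 they were ENSG00000278399 (r = 0.968), PCDHB4 (r = 0.965) and FREM3 (r = 0.963). Likeness is of pattern, not of size. Between the lines (log2), the PUS1 matches differed by 0.14, 0.14 and 0.21, beside 0.41 for PUS1. The PUS10 matches differed by -1.92, -4.09 and -3.32, beside -0.23 for PUS10. The 12 points of each correlation share their lines and libraries, so r is a description. PUS1 had 105 genes with r of at least 0.9 and PUS10 had 1115.

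Other genes of RNA modification were read from the same fit. The mitochondrial pseudouridine module holds RPUSD3 and RPUSD4, the RluA relatives of mitochondria, with TRUB2, FASTKD2, FASTKD5, NGRN and RCC1L, which associate with them on mitochondrial ribosomal RNA. Of these 7 genes, 5 were higher in HPB-ALL, 0 were higher in KOPTK1 and 2 (FASTKD5 and NGRN) did not pass, and their median difference was 0.27 (log2), beside 63.8% of all genes called and 30.7% higher in HPB-ALL. RCC1L (0.63, adjusted p = 2.3e-05 by edgeR) and FASTKD2 (0.61, adjusted p = 1.3e-05) differed most, and without libraries 1, 2 and 3 they were at 0.88 and 0.84. RPUSD3 was at 0.27 (adjusted p = 0.0046) and RPUSD4 at 0.24 (adjusted p = 0.0065 by edgeR).

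Of the 6 H/ACA genes, which serve the guided route to pseudouridine, 4 were higher in HPB-ALL and 0 higher in KOPTK1, with a median difference of 0.21 (log2), where 63.8% of all genes were called and 30.7% were higher in HPB-ALL. SHQ1 (0.46 ± 0.12, adjusted p = 0.0035 by edgeR) and DKC1 (0.27 ± 0.04, adjusted p = 5.6e-05) differed most. The value of SHQ1 pools libraries of cells with and without its knockdown in both lines. Among 32 tRNA modification enzymes of other chemistries, 19 were higher in HPB-ALL, 6 higher in KOPTK1 and 7 did not pass, with a median of 0.19 (log2), equal to that of the synthase genes at this precision. Of all genes tested, 30.7% were higher in HPB-ALL and 33.2% in KOPTK1. The largest differences were those of TRMU (0.49) and TRIT1 (0.45), which modify the wobble uridine of mitochondrial tRNA and the adenosine beside the anticodon, and, in the other direction, TRDMT1 (-0.75), a tRNA cytosine methyltransferase, and ELP3 (-0.60), the catalytic subunit of Elongator. Without libraries 1, 2 and 3 the counts were 20, 7 and 5, with 33.8% of all genes higher in HPB-ALL and 34.2% in KOPTK1.

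Promoter windows, from 250 bases before to 50 after a RefSeq start in GRCh38.p14, were found for 7 of the 10 genes: PUS3, PUS7, PUS10, TRUB1, TRUB2, RPUSD1 and RPUSD2. PUS10 has 4 windows and TRUB2 has 2, for as many starts, which makes 11 windows in all. They were searched on both strands for the E-box CACGTG, the GC box GGGCGG, the CCAAT box CCAAT and the ETS core CCGGAAG, none of which lies inside another, though matches can overlap at their ends. The 4 stretches printed here were chosen for different reasons. TRUB2, higher in HPB-ALL, had the largest difference in the fit without the KOPTK1 libraries that were set aside. PUS10 was higher in KOPTK1, and RPUSD1 did not pass the test. PUS7 did not pass either, but its stretch was chosen because it holds an E-box. Each stretch is given 5′ to 3′ on the strand of the gene, with motif matches that lie wholly within it in capitals. A GC box of RPUSD1 from base -2 runs past the end of its stretch and is not marked. They are, in order, chr9:128322448-128322547, chr2:61018256-61018395, chr16:788382-788481 and chr7:105522226-105522255, all on the minus strand. The first 3 end at the base before the start, and the last lies within the 50 bases after it.
TRUB2: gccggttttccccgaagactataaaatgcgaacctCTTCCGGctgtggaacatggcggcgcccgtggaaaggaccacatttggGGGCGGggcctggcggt
PUS10: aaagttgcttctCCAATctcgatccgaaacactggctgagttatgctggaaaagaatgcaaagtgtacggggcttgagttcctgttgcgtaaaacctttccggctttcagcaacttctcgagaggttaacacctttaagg
RPUSD1: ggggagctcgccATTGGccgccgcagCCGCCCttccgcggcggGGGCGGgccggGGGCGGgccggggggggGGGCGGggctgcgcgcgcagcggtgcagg
PUS7: gtcgctgcgccgCACGTGtgcgagcccggc
An E-box, the motif bound by MYC and its partner MAX, was in 2 of the 11 windows, that of PUS7 (from base 29 after the start) and that of the other start of TRUB2, and in 7.26% of all 35116 windows. GC boxes were in 6 of the 11 windows and in 45% of all windows, with 7 matches in the RPUSD1 window and 3 in that of PUS7. The 2 windows of TRUB2 overlap and hold the same GC box, so that site is counted more than once. The CCAAT box was in 3 of the 11 windows (34.6% of all windows), those of PUS10 and RPUSD1, and the ETS core in 2 (10.3% of all windows), of PUS10 and TRUB2. The CCAAT box of PUS10 is likewise a single site in overlapping windows. The windows of TRUB1 and RPUSD2, both higher in HPB-ALL, held none of the 4 motifs as spelled here.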

How the data were processed

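The authors deposited 1 table of 58288 genes per cell line, with estimated counts (expected counts, some fractional) of reads per gene for 6 libraries, and the summed exon length. Per the submitters' processing notes, Trimmomatic 0.36, STAR 2.5.4b, Picard 2.18.7, featureCounts 1.6.2 and edgeR 3.22.3 were used with hg38. The methods name hg19 and Bowtie 2 for the junction analysis, and a TruSeq RNA kit after rRNA depletion. The deposited counts are not normalized, so both tables could be fitted together. The authors' fold change, average log2 CPM, F, p-value and FDR columns hold their comparison and were not used. Libraries were assigned to a line because the labels name that line's table, and 0 per-library columns were left out. All synthase genes overlapped their GRCh38.p14 position, and symbols were found for 95.9% of identifiers.

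Counts were rounded to whole numbers and fitted with edgeR 4.0.16 in R 4.3.3 (filterByExpr, TMM, glmQLFit, glmQLFTest, line as the only term). SE was derived as the absolute log2 fold change divided by the square root of F. TPM was computed from the unrounded counts and lengths. Alternatives were size factors of DESeq2 1.42.0, DESeq2 itself, no filter, leaving out each library or KOPTK1 libraries 1, 2 and 3, and other scalings. Library totals of 22.9 M to 42.8 M counts limit the precision. The steps were tested on simulated data, where small differences were missed more often than large ones and false calls were somewhat above the nominal share. Tables and figures used Python 3.11.15. The members and the lists were chosen with earlier results of these data known. From each list the text names, higher and lower separately, the 2 genes past the threshold with the largest difference, and for PUS1 and PUS10 the 3 best correlated genes. RPUSD3 and RPUSD4 were named besides as family members. COQ4, CHTF18, INTS11 and PEX13 were named as genes that share exon bases.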

Additional observations from a re-analysis of the deposited data

How the results depend on the processing

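The 7 synthase genes past the threshold kept their direction and passed under every alternative: size factors of DESeq2, no filter on low counts, DESeq2, any single library left out and, chosen after the data were seen, library sizes alone, median centring and the fit without KOPTK1 libraries 1, 2 and 3. Passing the last of these is no independent support, since it leaves out the KOPTK1 libraries nearest to HPB-ALL. The KOPTK1 libraries left in it also carry an unknown mix of shGFP and shSHQ1. With any single library left out, 7 to 8 of the 10 genes passed, and 16880 to 18348 genes in all, the eighth being PUS7 without HPB-ALL library 7. PUS3 and RPUSD1 passed under none of these. A further fit, which also left out the HPB-ALL libraries low in SHQ1, was run and is not reported, because it chose libraries by a measured outcome. In it PUS7 changed sign without passing and RPUSD1 passed. DESeq2 called 19438 genes (48.7% of those it tested) and the fit without a filter 19514 (40.2%), against 17774 (63.8%), so the share that 7 of 10 is read against is lower there. Counts as deposited, not scaled by length or total, raised the ratio of median levels (log2, HPB-ALL over KOPTK1) of all 10 genes, since HPB-ALL libraries are deeper, and turned that of PUS10 from -0.19 to 0.23 and that of PUS7 from -0.08 to 0.34. No paired analysis was possible because the numbers that head the libraries match no replicate or shRNA of the labels.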

Other observations

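In HPB-ALL the levels of SHQ1 fell into separate clusters, 194, 196 and 195 TPM in libraries 7, 8 and 9 and 129.999, 126 and 134 TPM in libraries 10, 11 and 12. The labels do not tie these numbers to an shRNA, so no comparison was made of these libraries. The 41131 genes with at least 1 count in KOPTK1 library 3 exceeded the 36506 to 38467 of the other libraries of either line, with TLX3 (0.796 TPM), MPO (0.948 TPM), COL1A2 (1.001 TPM) and KRT18 (0.777 TPM) highest there. These 4 genes were chosen after their values were seen. Of the 17 markers of other cell types, 7 were highest in that library, and the others, such as CD14, LYZ and COL1A1, were not.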
